A study of Mus musculus with 6 samples.

Results

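The peroxisomal gene set examined here holds 45 named genes of peroxisomal oxidation, ether lipid metabolism and peroxisome assembly, and it was compared between kidneys of diabetic db/db mice and of their db/m littermates. The genes were grouped by function, with earlier results of these data known. Signal on these arrays enters the rule only in the choice among several probe sets of a gene. Of the 45 genes, 44 had an array probe set that names them and no other gene, out of 22180 genes with such a probe set. The measured genes are 31 enzymes and transporters, 11 peroxins (the Pex proteins that build the organelle) and 2 other membrane proteins. Acot8, a thioesterase, shares its probe set with another gene and was not analysed here. Where several probe sets name a gene alone, the one with the highest mean signal stands for it, which concerned Phyh and Acot4 only.

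The arrays came from 3 db/db and 3 db/m male mice of the C57BL/KsJ strain, all aged 22 weeks, with 1 array per mouse. Mice of the db/db genotype carry a leptin receptor mutation on both chromosomes and develop obesity and type 2 diabetes, whereas db/m mice are the nondiabetic controls, and neither group had received any treatment named in the sources. The labels give the tissue as kidney, the methods as renal cortex. The mutation acts in every tissue of the animal, so kidney cells were not targeted on their own. Signals are given on the log2 scale as deposited, where a difference of 1 is a 2-fold change, and differences are db/db minus db/m. They were tested with limma, a linear model with moderated variances, with Benjamini-Hochberg adjustment over all 22180 genes, and a gene was called when its adjusted p was under 0.05.

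Peroxisomes shorten very long, branched and dicarboxylic fatty acids, degrade D-amino acids and hydroxy acids with the release of hydrogen peroxide, and carry out the opening steps of ether lipid synthesis. In the kidney they are most abundant in the proximal tubule. Their enzymes are made in the cytosol and imported by peroxins, and in rodents many of these genes are targets of the nuclear receptor PPARA.

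Signal of the oxidation and ether lipid enzymes differed between the groups in a few genes, and signal of the peroxins in none that passed. Agmo, which cleaves ether lipids, rose by 1.02 on the log2 scale, and Amacr, a racemase of branched acyl-CoAs, fell by 0.76. These were the only 2 of 44 genes called, 1 higher and 1 lower, against 0.194% of all genes called higher and 0.289% called lower. At the study's thresholds (at least 1.5-fold, unadjusted p under 0.05, here from limma), Agmo was higher and Amacr and Agps were lower. Over all genes, 1.02% were higher and 0.807% lower. Crot, which the paper lists as downregulated, was 1.46-fold lower here and so fell short of 1.5-fold. The paper names Agmo, Amacr, Agps and Crot from these same arrays, so their directions are not independent evidence. In bulk kidney RNA, fewer cells of a type and less RNA per cell cannot be told apart.

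At an unadjusted p under 0.05 from limma, 2 of the 31 enzymes and transporters were higher (6.45%) and 5 were lower (16.1%), beside 5.92% and 4.7% of all genes. Among the 27 that the paper does not name, 1 was higher (3.7%) and 2 were lower (7.41%). The 3 mice of each group lay apart in 2 enzymes with higher signal in db/db mice, Agmo and Hacl1, and in 6 with lower signal, Agps, Gnpat, Amacr, Ehhadh, Pecr and Crot. Over all genes, the groups lay apart in 9.17% with higher and in 7.62% with lower signal. The median log2 fold change was -0.043 over the enzymes and transporters and -0.049 over the peroxins, against 0.0050 over all genes, and the 44 genes held 14 positive and 30 negative values.

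**Figure D1:**
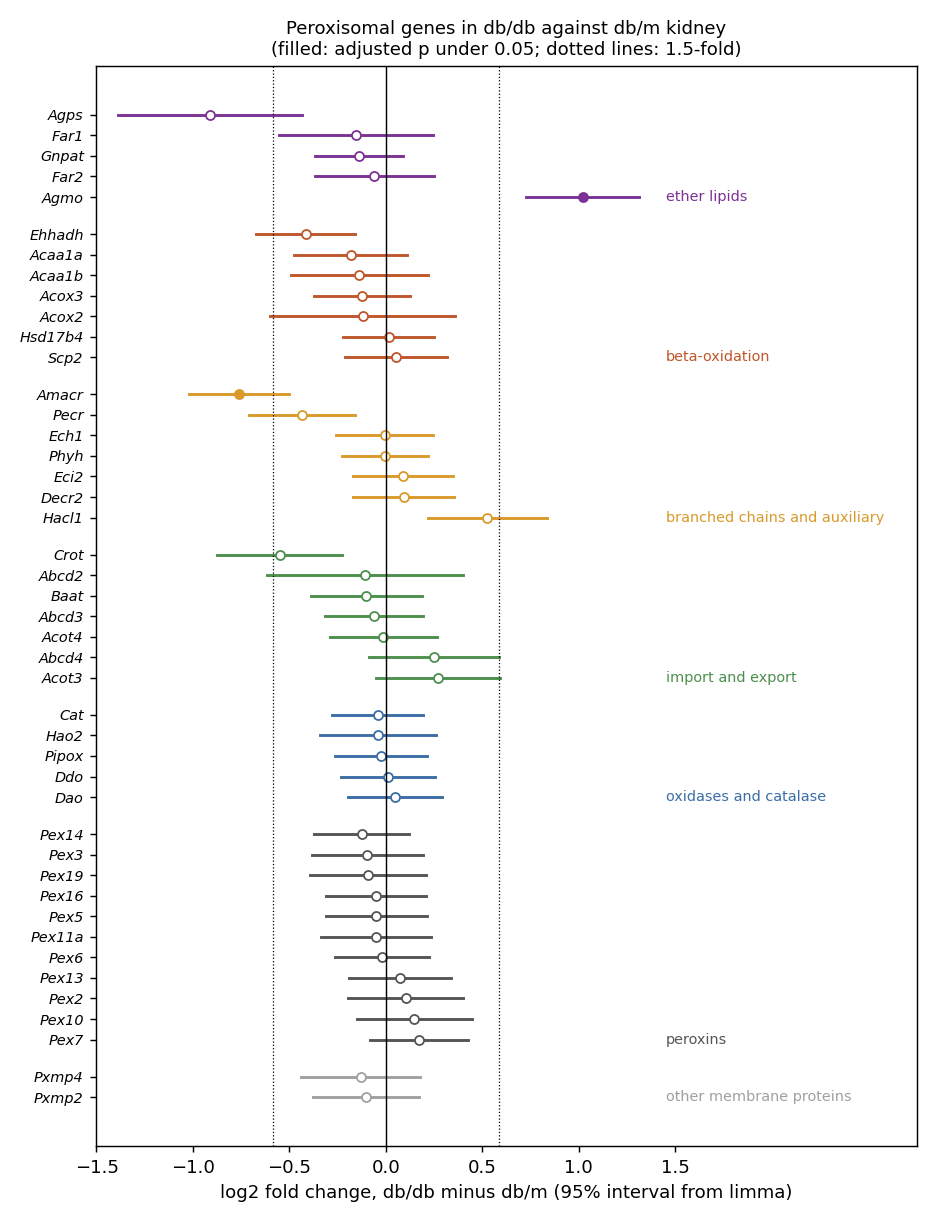
Log2 fold change of each of the 44 measured genes (x axis, db/db minus db/m, with the 95% interval from limma), ordered by role on the y axis; filled points have an adjusted p under 0.05 and dotted lines mark a 1.5-fold change. Agmo at 1.02 and Amacr at -0.76 are the filled points, and all 11 peroxin intervals lie between the dotted lines.

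Among ether lipid genes, the differences were largest at the enzyme that makes the ether bond and at the one that breaks it. Gnpat transfers an acyl group to dihydroxyacetone phosphate in the peroxisome, Agps then exchanges this acyl group for a fatty alcohol and so forms the ether bond, and Far1 and Far2 reduce acyl-CoAs to that fatty alcohol. Agmo, alkylglycerol monooxygenase, is a tetrahydrobiopterin-dependent enzyme of the endoplasmic reticulum that opens the bond again. Agmo had signals of 6.58, 6.84 and 6.44 in db/m mice against 7.68, 7.74 and 7.50 in db/db mice. All 3 db/db mice lay above all 3 db/m mice, by at least 0.66 on the log2 scale. The group means were 6.62 ± 0.20 (SD, n = 3) and 7.64 ± 0.13 (SD, n = 3), a 2.03-fold difference (standard error 0.13 on the log2 scale, adjusted p = 0.0137). With 1 mouse left out in turn, Agmo passed in 2 of 6 fits, with log2 fold changes from 0.93 to 1.13 and the highest adjusted p at 0.0743. Its call was also lost with the methods' test (adjusted p = 0.330) and with moderation over all probe sets (adjusted p = 0.103).

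Agps had signals of 8.72, 8.49 and 7.80 in db/m mice against 7.56, 7.27 and 7.43 in db/db mice. The groups did not overlap, but db/m replicate 3 lay closer to the db/db mice than to the other db/m mice. The log2 fold change was -0.91 (standard error 0.21, adjusted p = 0.135), a 1.88-fold lower mean, with an SD of 0.48 among db/m mice and 0.15 among db/db mice. Without db/m replicate 3 it was -1.18 and passed (adjusted p = 0.0332), and without db/m replicate 1 it was -0.72 (adjusted p = 0.314). Gnpat, the step before Agps, showed a much smaller difference, at 7.95, 7.89 and 8.02 in db/m mice against 7.87, 7.82 and 7.74 in db/db mice. Its groups lay apart by a narrow margin, with a log2 fold change of -0.14 and a 95% interval from -0.37 to 0.09. Far1 ranged from 8.14 to 8.74 in the db/m mice and from 8.18 to 8.61 in the db/db mice, so the groups overlapped (log2 fold change -0.16, adjusted p = 0.801). Far1 was lowest in db/m replicate 3, the db/m mouse in which Agps was also lowest. Far2 lay under the array median of all probe sets, 3.39, in every mouse, with values between 1.99 and 2.48, so its difference of -0.06 is read from signal near background.

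Other ether lipid genes held no call. Of 12 listed genes 10 were measured, and an unadjusted p under 0.05 was found for 1 with higher (10%) and 1 with lower signal (10%), with a median log2 fold change of 0.02. Over all genes the shares were 5.92% and 4.7%, and 1 gene of 10 is near them. The lower one was Tmem189, named here after its value was seen, which encodes the desaturase that completes plasmalogens (log2 fold change -0.28, adjusted p = 0.421). The higher one, also named after its value was seen, was Pla2g7, which hydrolyses platelet-activating factor (log2 fold change 0.47, adjusted p = 0.429).

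Promoters of Agps and Agmo are shown because these enzymes act on opposite sides of the ether bond and had the largest log2 fold changes of opposite sign. Each is the stretch of 250 bases before the RefSeq transcription start, on the plus strand of GRCm38.p6, at chr2:75831927-75832176 for Agps and chr12:37241389-37241638 for Agmo. Capitals mark matches on either strand to GGGCGG, the core of the GC box, and to CCAAT, motifs that do not overlap in these windows.
Agps: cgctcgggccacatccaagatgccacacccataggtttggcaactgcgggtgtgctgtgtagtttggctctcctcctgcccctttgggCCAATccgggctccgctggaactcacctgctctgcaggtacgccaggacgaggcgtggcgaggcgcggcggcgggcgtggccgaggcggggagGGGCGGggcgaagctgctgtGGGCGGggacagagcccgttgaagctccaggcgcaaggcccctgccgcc
Agmo: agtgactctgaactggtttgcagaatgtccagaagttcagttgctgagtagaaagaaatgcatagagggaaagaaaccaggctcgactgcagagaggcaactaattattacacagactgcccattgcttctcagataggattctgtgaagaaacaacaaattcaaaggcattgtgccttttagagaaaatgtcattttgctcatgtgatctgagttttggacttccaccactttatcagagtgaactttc
Agps has 2 matches to GGGCGG, 1 to CCAAT and 70.0% G and C bases, and Agmo has 0 matches to either motif and 40.8% G and C bases. The other ether lipid genes of the set resemble Agps in this. Gnpat, Far1 and Far2 have 67.6%, 67.6% and 67.2% G and C bases, with 1, 3 and 2 matches to GGGCGG. A link between these letters and the direction of a difference was not tested. Of 27025 genes with a promoter in the RefSeq table, noncoding genes included, 35.4% hold GGGCGG and 37.5% hold CCAAT, and the median G and C content is 52.4%. Of the 45 listed genes, 37 have a promoter there, of which 24 hold GGGCGG (64.9%) and 20 hold CCAAT (54.1%). The direct repeat AGGTCANAGGTCA, the consensus bound by PPARA with its partner RXR, was found in 0 of these 37 genes and in 0.0407% of all genes. An exact match is so rare, in 11 of 27025 genes, that a count of 0 among 37 carries no information. Repeats that depart from the consensus were not searched for. A match is a description of the letters and not of binding, and its absence from 250 bases says nothing about sites elsewhere.

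Branched-chain oxidation held the called decrease and, in the opposite direction, a higher signal of Hacl1 that did not pass. Amacr converts branched acyl-CoAs, including bile acid precursors, into the stereoisomer that peroxisomal oxidases accept. Its signals were 10.96, 10.73 and 10.81 in db/m mice against 10.12, 10.17 and 9.93 in db/db mice. Every db/db mouse lay below every db/m mouse, and the spread within each group was small beside the gap. The mean went from 10.84 ± 0.11 (SD, n = 3) to 10.07 ± 0.13 (SD, n = 3), 1.69-fold lower (standard error 0.11 on the log2 scale, adjusted p = 0.0284). The direction held with any mouse left out, but the call was lost in all 6 of these fits (log2 fold changes from -0.81 to -0.69, adjusted p from 0.0577 to 0.111). It was also lost with the methods' test (adjusted p = 0.330) and with moderation over all probe sets (adjusted p = 0.158). With the replicate number as a block in limma, the adjusted p of Amacr was 0.0753.

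Hacl1 cleaves the hydroxylated phytanoyl-CoA that Phyh makes, so the enzymes act in consecutive steps of phytanic acid breakdown. Hacl1 had signals of 8.24, 8.67 and 8.70 in db/m mice against 9.01, 9.06 and 9.12 in db/db mice. The groups did not overlap, and db/m replicate 1 lay below the other db/m mice. The log2 fold change was 0.53 (standard error 0.14, adjusted p = 0.177), with values from 0.38 without db/m replicate 1 to 0.61 without db/m replicate 3. The annotation also lists Hacl1 on a probe set shared with Btd and on another shared with Colq, which were not used and had log2 fold changes of -0.15 and 0.07. Phyh had signals of 9.95, 10.03 and 9.98 in db/m mice against 9.99, 9.91 and 10.04 in db/db mice. Its groups overlapped almost fully, and the 95% interval of the difference ran from -0.23 to 0.22 around a log2 fold change of -0.0046. The difference between the changes of Hacl1 and Phyh was not tested.

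Pecr, a reductase of enoyl-CoAs, had 9.81, 9.76 and 9.75 in db/m mice against 9.49, 9.42 and 9.11 in db/db mice. Its groups lay apart, with the lowest value in db/db replicate 3, but the difference did not pass (log2 fold change -0.43, standard error 0.12, adjusted p = 0.215). Ech1, Eci2 and Decr2 handle double bonds of unsaturated fatty acids before they enter the spiral. Their log2 fold changes lay between -0.0059 and 0.09, and the 95% intervals of all of them lay within a 1.5-fold change in either direction.

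The enzymes of the beta-oxidation spiral had lower or near-equal mean signal, and none passed. Ehhadh, the bifunctional enzyme that acts on dicarboxylic and straight-chain substrates, had signals of 10.21, 10.33 and 10.37 in db/m mice against 9.78, 9.83 and 10.05 in db/db mice. All 3 db/db mice lay below all 3 db/m mice, with the smallest gap at db/db replicate 3. The log2 fold change was -0.42 (standard error 0.11, 95% interval from -0.67 to -0.16, adjusted p = 0.202). Hsd17b4, the other bifunctional enzyme, which serves very long and branched chains, had 8.89, 8.97 and 9.03 in db/m mice against 9.04, 8.86 and 9.03 in db/db mice. Its groups overlapped throughout, with a log2 fold change of 0.01 and an interval from -0.22 to 0.25. Whether Ehhadh and Hsd17b4 differed from each other in their change was not tested.

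Thiolases and acyl-CoA oxidases made up the rest of the spiral. Acaa1b, a thiolase, had 7.37, 7.25 and 7.77 in db/m mice against 7.42, 7.46 and 7.11 in db/db mice, and Scp2, the thiolase and sterol carrier protein, had 7.38, 7.45 and 7.16 against 7.48, 7.25 and 7.42. In both genes the groups overlapped, with log2 fold changes of -0.14 and 0.05. Acaa1a and Acaa1b are near-identical neighbours, so probes of 1 may also read the other, and the log2 fold change of Acaa1a was -0.18 (adjusted p = 0.664). The oxidases Acox2 and Acox3 open the spiral for branched substrates and had log2 fold changes of -0.12 each. Acox2 was at 8.71 in db/m replicate 3 against 8.03 and 7.97 in the other db/m mice, and its interval, from -0.60 to 0.36, is among the widest of the set.

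**Figure D2:**
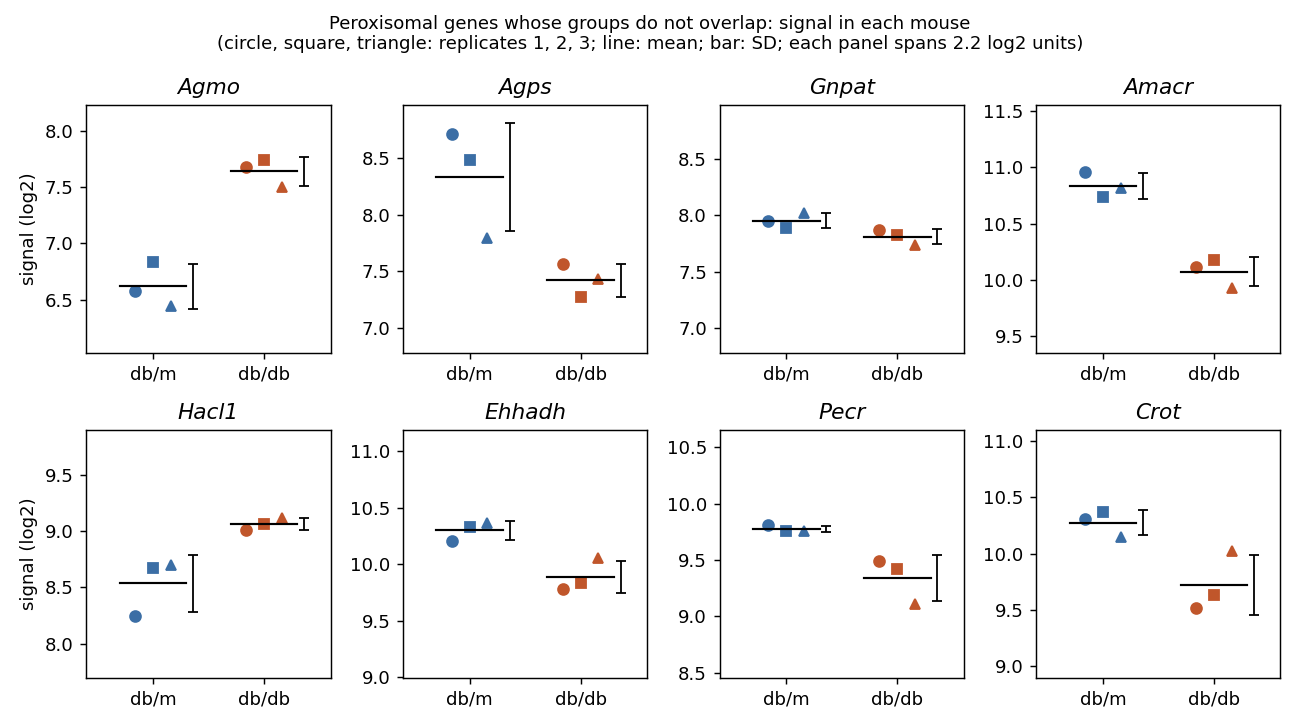
Log2 signal (y axis) of the 8 genes whose groups do not overlap, in each db/m and db/db mouse (x axis); symbols mark replicates, lines the group means and bars the SD, and every panel spans the same number of log2 units. Agmo and Amacr show the clearest separation, while in Agps db/m replicate 3 at 7.80 lies near the db/db mice.

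Of the proteins that bring acyl chains in or send them out, Crot showed the lowest signal in db/db mice relative to db/m. Crot joins medium-chain products to carnitine for export to mitochondria, and it had 10.31, 10.37 and 10.15 in db/m mice against 9.51, 9.64 and 10.02 in db/db mice. The groups did not overlap, though db/db replicate 3 came within 0.13 of the nearest db/m mouse. The log2 fold change was -0.55 (standard error 0.14, adjusted p = 0.182), with values of -0.45 when db/db replicate 1 was left out and -0.70 when db/db replicate 3 was. Abcd3, the transporter of branched and dicarboxylic acyl chains, had 9.89, 10.10 and 9.80 in db/m mice against 9.81, 9.85 and 9.94 in db/db mice, with overlapping groups and a log2 fold change of -0.06. Abcd4, a relative of Abcd3 that acts in lysosomal cobalamin export, differed by 0.25 on the log2 scale (adjusted p = 0.601), and Abcd2 lay near background at 2.57 to 3.57.

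Acot3 and Acot4 release fatty acids from CoA and are close neighbours and paralogs, whose probes may share signal. The log2 fold change was 0.27 for Acot3 (adjusted p = 0.549) and -0.01 for Acot4 (adjusted p = 0.980). Baat, which joins bile acids to glycine or taurine, lay under the array median of 3.39 in every mouse, at 2.67 to 3.08.

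Catalase and the peroxisomal oxidases differed little between the groups. Cat, which breaks down hydrogen peroxide, had signals of 11.58, 11.60 and 11.77 in db/m mice against 11.67, 11.61 and 11.54 in db/db mice. The groups overlapped, and the log2 fold change of -0.04 had a 95% interval from -0.28 to 0.19. Dao, Ddo, Pipox and Hao2, the oxidases of D-amino acids, D-aspartate, pipecolic acid and sarcosine, and long-chain hydroxy acids, had log2 fold changes from -0.04 to 0.05. All 5 genes of this class had 95% intervals within a 1.5-fold change, and the median size of their log2 fold changes was 0.042, against 0.11 over all genes. Their probe sets were also brighter (median signal 10.4, against 4.36 over all genes) and less variable within groups (median SD 0.099, against 0.152).

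None of the 11 peroxins of the set passed any of the thresholds used. Log2 fold changes of the 11 genes ran from -0.13 to 0.17, 4 were positive and 7 negative, and 0 had an unadjusted p under 0.05 from limma or groups that lay apart. Over all genes these shares were 5.92% higher and 4.7% lower at that p, and 9.17% higher and 7.62% lower for groups apart, so in a class of 11 genes a count of 0 is close to the background. The lowest unadjusted p was 0.158. The 95% intervals together spanned -0.39 to 0.44, so for each of the 11 genes a 1.5-fold change, 0.58 on the log2 scale, lay outside the interval in both directions. Over all genes tested, 83.5% had such an interval, and among the enzymes and transporters 64.5%. The sign of the median over the peroxins turned to 0.03 without db/m replicate 3 and to 0.02 without db/db replicate 3.

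Import receptors came first among the peroxins described. Pex5, the receptor for the common carboxy-terminal import signal, had 6.77, 6.71 and 6.87 in db/m mice against 6.86, 6.79 and 6.55 in db/db mice. Pex7, the receptor for the amino-terminal signal that Agps and Phyh carry, had 6.19, 6.14 and 6.20 in db/m mice against 6.39, 6.17 and 6.48 in db/db mice. Both receptors had overlapping groups, and Pex7 had the highest log2 fold change of the class, 0.17 (95% interval from -0.08 to 0.43). The docking proteins Pex14 and Pex13 receive the loaded receptors at the membrane. Pex14 had 7.57, 7.56 and 7.71 in db/m mice against 7.38, 7.45 and 7.62 in db/db mice, the lowest log2 fold change of the class at -0.13, and Pex13 had 0.07.

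Receptor recycling and membrane assembly gave the same range. Pex2 and Pex10, which ubiquitinate the receptor, and Pex6, the ATPase subunit that extracts it, had log2 fold changes of 0.10, 0.15 and -0.02. Pex3, Pex16 and Pex19, which insert membrane proteins, had -0.10, -0.05 and -0.09. Pex11a promotes peroxisome proliferation and is a PPARA target in rodents, and it had 8.01, 8.33 and 8.39 in db/m mice against 8.14, 8.15 and 8.29 in db/db mice. The db/db values of Pex11a all lay within the range of the db/m mice, with a log2 fold change of -0.05. The membrane proteins Pxmp2 and Pxmp4 had -0.10 and -0.13, with overlapping groups.

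**Figure D3:**
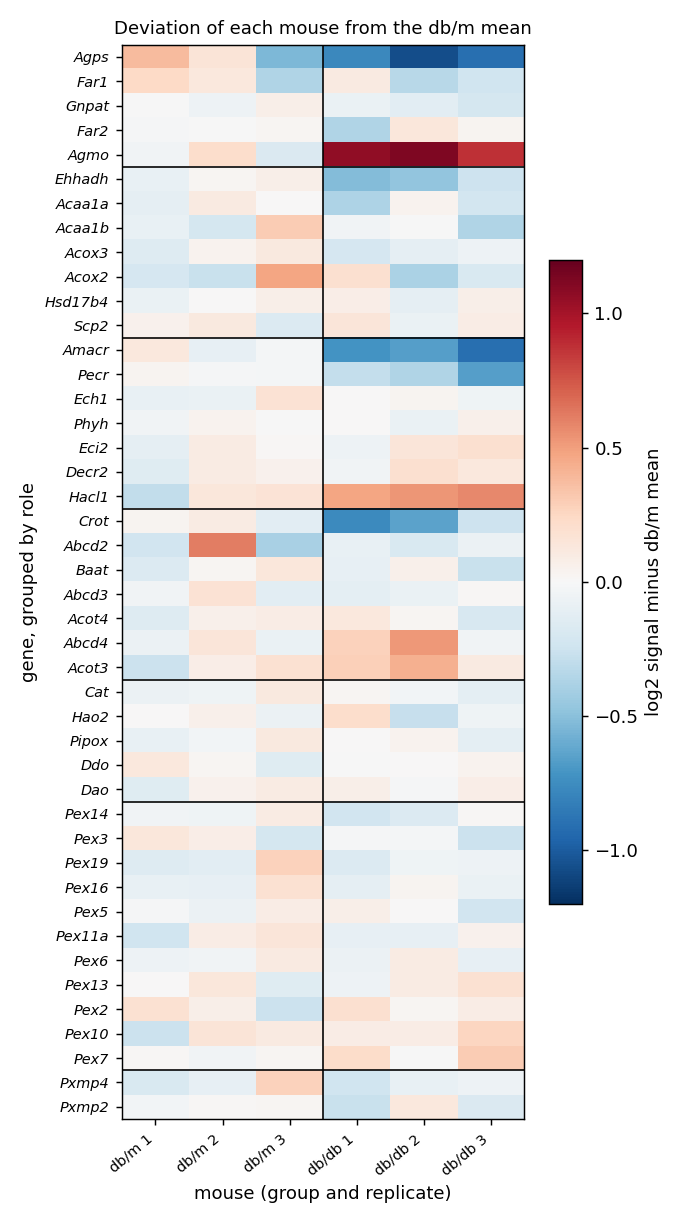
Log2 signal minus the db/m mean (colour) for the 44 measured genes (rows, grouped by role) in each of the 6 mice (columns). Agmo and Hacl1 are above and Agps, Amacr, Ehhadh, Pecr and Crot below the db/m mean in all 3 db/db mice. This also holds for genes with smaller differences, among them Acot3, Pex2 and Pex10 above and Gnpat, Pex3 and Pex19 below. Ehhadh and Crot are palest in db/db replicate 3, a shade also reached in single mice among the oxidases and peroxins.

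Single mice also set the extremes of many genes. The db/m replicate 3 held the highest or lowest signal of the 6 mice in 26 of the 44 genes (59.1%), 17 of them highest, against 44.6% of all genes. Among the genes it topped were Acox2, Acaa1b, Pex19 and Pxmp4, and among those where it was lowest were Far1, Pex2 and Scp2. The db/m replicate 2 was the extreme in 5 genes (11.4%), against 28.5% of all genes.

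**Figure D4:**
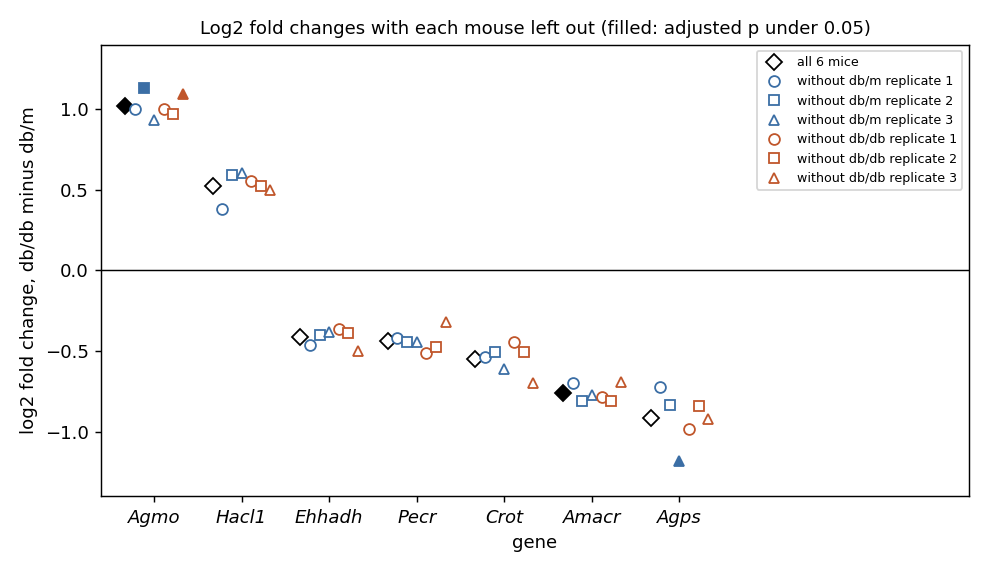
Log2 fold change (y axis) of the 7 genes with an unadjusted p under 0.05 (x axis), with all 6 mice and with each mouse left out; filled symbols have an adjusted p under 0.05. Every value keeps its sign, Agps passes only without db/m replicate 3, and Amacr passes only with all 6 mice.

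Further peroxisomal genes, taken as whole pathway lists, held no call. Of 42 genes such as Ephx2, Idh1 and Lonp2, 34 were measured, with 11 positive and 23 negative log2 fold changes and a median of -0.10. At an unadjusted p under 0.05 from limma, 2 were higher (5.88%, against 5.92% of all genes) and 3 lower (8.82%, against 4.7%), and none reached a 1.5-fold change. Of 10 further peroxins and fission genes 7 were measured, with 0 higher and 1 lower at that threshold and a median of 0.05. The lower one was Pex11g, a peroxin outside the main set, named here after its value was seen (log2 fold change -0.36, adjusted p = 0.335). Its groups also lay apart, by 0.05 on the log2 scale. It was the only 1 of the 7 with groups apart (14.3%, against 7.62% of all genes with lower signal).

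PPARA and its targets outside the peroxisome held differences of both signs. Of 22 listed genes 20 were measured, and 1 rose and 0 fell, where 0.194% of all genes were called higher and 0.289% lower. The median log2 fold change was -0.06, with 8 positive and 12 negative values. The groups lay apart in 5 genes with higher signal (25.0%, against 9.17% of all genes), Cyp4a14, Fabp1, Hadha, Hadhb and Ppargc1a, and in 0 with lower signal (7.62% of all genes). The paper names Cyp4a14 and Fabp1 from these same arrays, so these 2 are not independent evidence. Hadhb lay near the array median of 3.39, at 3.57 to 3.89 in single mice, and the groups of Ppargc1a were only 0.02 apart. The call was Cyp4a14, a fatty acid omega-hydroxylase, which had signals of 10.02, 10.29 and 10.48 in db/m mice against 11.07, 11.00 and 11.38 in db/db mice (log2 fold change 0.89, adjusted p = 0.0449). At the study's thresholds Fabp1, a fatty acid-binding protein, was also higher (log2 fold change 0.70, adjusted p = 0.139), at 2.13 to 3.33 in single mice, under the array median. Angptl4, an inhibitor of lipoprotein lipase, and Cyp4a12a, a relative of Cyp4a14, were lower at these thresholds, with groups that overlapped. The log2 differences were -0.79 for Angptl4 (adjusted p = 0.368) and -0.66 for Cyp4a12a (adjusted p = 0.252). Cyp4a12b, a paralog of Cyp4a12a, differed the other way without passing (log2 fold change 0.57, adjusted p = 0.491), also with overlapping groups. Whether probes of these paralogs share signal was not tested. Ppara itself had 7.64, 7.81 and 7.65 in db/m mice against 8.29, 7.98 and 7.70 in db/db mice, which overlapped (log2 fold change 0.29, adjusted p = 0.542).

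Marker genes of kidney cell types gave the setting for these values. Of 22 proximal tubule markers 20 were measured. Their summed linear signal was 47664 to 50722 in the db/m mice and 46374 to 49491 in the db/db mice, with overlapping ranges, 0 called genes and a median log2 fold change of 0.02. Single markers differed in both directions, and at an unadjusted p under 0.05 from limma 4 of the 20 were lower (20.0%, against 4.7% of all genes) and 2 higher (10%, against 5.92%). The groups lay apart with lower signal in 5 markers (25%, against 7.62% of all genes). These were Slc17a3 (log2 fold change -0.58), Cyp2e1 (-0.41), Acy3 (-0.40), Slc22a6 (-0.28) and Keg1 (-0.23). With higher signal they lay apart in 3 (15%, against 9.17%), Slc13a1 (0.26), Slc5a2 (0.26) and Slc22a8 (0.12). The sum over 8 of 8 thick limb and distal tubule markers was higher in the db/db mice, at 10015 to 11263 against 8362 to 8823. Of these markers 0 were called, and their median log2 fold change was 0.31. At an unadjusted p under 0.05 from limma, 4 of the 8 were higher (50%, against 5.92% of all genes) and 0 lower. Their groups lay apart with higher signal in 5 (62.5%, against 9.17% of all genes) and with lower signal in 0. Over 8 of 8 collecting duct markers the sum was 2584 to 2918 against 2114 to 2530, with 0 called. At that p 2 were higher (25%), and groups lay apart with higher signal in 2 (25%). Over 4 of 6 podocyte markers the sum was 722 to 765 against 611 to 711, with 0 called and all 4 log2 fold changes positive. At that p 1 was higher (25%), and groups lay apart with higher signal in 2 (50%). Over 9 of 9 leukocyte markers the sum was lower, at 207 to 241 against 282 to 290. Of these 1 was called lower, against 0.289% of all genes. At that p 4 were lower (44.4%, against 4.7% of all genes) and 0 higher. Their groups lay apart with lower signal in 5 (55.6%, against 7.62% of all genes) and with higher signal in 0. The sum over 6 of 6 hepatocyte markers was 527 to 675 in db/db mice and 376 to 561 in db/m mice, which overlapped. All 6 log2 fold changes were positive, with 0 called and 2 at an unadjusted p under 0.05 from limma (33.3%, against 5.92% of all genes). Sums of endothelial, fibroblast and smooth muscle, and adipocyte markers overlapped, with 0 called. The part of these shifts in the differences of the peroxisomal genes was not tested.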

How the data were processed

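RNA from each mouse was hybridised to 1 Affymetrix array. The deposited values are log2 signals per probe set, which the authors made with the robust multi-array average (RMA) method in Affymetrix Expression Console (versions not given in the sources used here). RMA subtracts background, equalises the arrays and summarises probes. It compresses differences between dim probe sets, and signals of different genes were not compared. The methods name another Affymetrix mouse array than the one whose platform annotation matched the probe set numbers, and the latter was used here.

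Of 41345 probe sets, 23521 name 1 gene, 1820 several and 16004 none in that annotation, and symbols were updated through RefSeq gene IDs (23328 matched, 193 did not). The probe set with the highest mean over the 6 arrays stood for each gene. Array medians were 3.36 to 3.43, and signals ran from 0.42 to 12.8. The number of arrays limits the precision. The labels call the 3 arrays of a group biological replicates.

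Groups were compared with limma 3.58.1 in R 4.3.3 (lmFit and eBayes, no covariate), with Benjamini-Hochberg adjustment over 22180 genes, and the code was tested on simulated data. Errors are limma standard errors and 95% intervals, or SDs over 3 mice. The genes and lists were chosen with earlier results of these data known. By rule, values in each mouse were given for genes that passed a threshold, genes the paper names and representatives of each role, and those of Hacl1, Pecr, Far1 and Ppara and single values of other genes were added after they were seen. Promoters came from RefSeq (GRCm38.p6).

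Alternatives were another normalization, a filter on dim genes, other variance models, the methods' test (a 2-group analysis of variance), other probe set rules, other thresholds, the replicate number as a block, and each array left out.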

Additional observations from a re-analysis of the deposited data

How the results depend on the processing

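Over 613 combinations of a gene and a setting, 597 kept their side of the threshold, 15 lost a call (Agmo or Amacr), 1 gained it (Agps without db/m replicate 3), and 0 called values changed sign. The count of genes called higher was 0 with the methods' t-test and 0 with moderation over all probe sets (main value 1), and ranged from 0 to 1 with each mouse left out, being 0 without db/m replicate 1, db/m replicate 3, db/db replicate 1 or db/db replicate 2. The count called lower was 0 with the methods' t-test and 0 with moderation over all probe sets (main value 1), and ranged from 0 to 1 with each mouse left out, the 1 being Agps in place of Amacr without db/m replicate 3. Adjusted p was 0.330 for Agmo and Amacr with the methods' t-test, and 0.103 and 0.158 over all probe sets. At the study's thresholds, the methods' t-test gave 1 gene higher and 2 lower. There, leaving out mice gave 1 to 2 genes higher (Hacl1 joined without db/m replicate 2 or db/m replicate 3) and 2 to 3 lower (Crot joined without db/m replicate 3 or db/db replicate 3), and a 2-fold limit gave 0 lower. The peroxin median ran from -0.080 to 0.025 with each mouse left out, and the enzyme median from -0.076 to -0.026.

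Same-numbered mice did not deviate together (correlations over genes 0.042, -0.054 and -0.076), and only replicate 1 correlated best with its own number. The labels do not say that a number is shared, and correlations over genes cannot settle whether mice were paired. With the replicate block, 1 gene was called higher and 0 lower (Amacr, adjusted p = 0.0753). Dim signal limits Far2, Abcd2 and Baat, the 3 genes whose mean lies under the array median.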
